A study of Mus musculus with 16 samples.

Results

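The 10 genes described here encode brakes on mitogen-activated protein (MAP) kinase signalling, namely the dual specificity phosphatases Dusp1, Dusp4, Dusp5, Dusp6, Dusp8 and Dusp10, the Sprouty genes Spry1, Spry2 and Spry4, and the Sprouty-related gene Spred1. They were chosen by name, as the rows whose Ensembl identifier carried one of these symbols, and are 10 of 22372 genes measured. RNA was sequenced from pieces of heart ventricle of 16 male mice of the strain C57BL/6J, with 4 mice in each of 4 groups. The sample labels give an age of 10 to 12 weeks. In its account of the surgery the study gives a range with the same lower and a slightly lower upper limit. Sham-Veh mice had the operation without a constriction and received vehicle. TAC-Veh mice received vehicle after transverse aortic constriction (TAC), a suture around the aortic arch that loads the left ventricle with pressure. Sham-THZ1 and TAC-THZ1 mice had the same operations and were given THZ1, a covalent inhibitor of the transcriptional kinases CDK7, CDK12 and CDK13, at 10 mg/kg by intraperitoneal injection b.i.d. from postoperative day 1 to day 60. All mice were of one strain with no engineered allele named, so the groups differ in surgery and drug.

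MAP kinases carry growth factor and stress signals from the cell membrane to the nucleus, in the branches ERK, p38 and JNK. Dual specificity phosphatases remove both activating phosphates from these kinases, and many are themselves induced by the pathway they switch off, which forms a negative feedback loop. Sprouty and Spred proteins act higher up, between receptor tyrosine kinases and the activation of Ras and Raf. In the heart, ERK signalling is known for its part in the growth of cardiomyocytes, and p38 and JNK for their response to stress.

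In the GENCODE annotation on the mm9 mouse genome, the inducible nuclear phosphatases were Dusp1 (ENSMUSG00000024190, chr17:26642535-26645464, minus strand), Dusp4 (ENSMUSG00000031530, chr8:35870351-35882948, plus) and Dusp5 (ENSMUSG00000034765, chr19:53603599-53616921, plus). Dusp6, the cytoplasmic phosphatase of ERK, was ENSMUSG00000019960 at chr10:98725865-98730122 on the plus strand. Dusp8 (ENSMUSG00000037887, chr7:149265395-149281748, minus) and Dusp10 (ENSMUSG00000039384, chr1:185837181-185899515, plus) are phosphatases with a preference for p38 and JNK. Spry1 (ENSMUSG00000037211) lay at chr3:37538869-37543520 on the plus strand, Spry2 (ENSMUSG00000022114) at chr14:106291166-106296036 on the minus strand, and Spred1 (ENSMUSG00000027351) at chr2:116947110-117008015 on the plus strand. Spry4 was ENSMUSG00000024427. The symbol Dusp8 had another identifier on the same strand, ENSMUSG00000043186, which was at 0 in every library. It shares 1186 exon bases with the row used, and the counting program leaves reads over both genes uncounted, so the level of Dusp8 is understated. Dusp10 overlaps 1700056E22Rik on the opposite strand with 0 shared exon bases.

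Because these genes are known as early targets of the pathways they restrain, the 250 bases before each start site were searched on both strands for the letters of 4 motifs of signal-responsive factors. These were TGACGTCA (the cAMP response element), TGANTCA (the AP-1 site), CCGGAA (the ETS core) and the CArG box of serum response factor. None of the 4 motifs contains another in full. RefSeq start sites on GRCm38.p6, a later build than that of the counts, were used for 8 of the 10 genes. None was found for Dusp4. Spry4 was left out of the search, so whether its window holds a match is not known here. Of these 8, only Dusp1, Dusp5 and Dusp8 held a match. Their windows are shown with the matched letters in capitals (Dusp1 at chr17:26508473-26508722, minus strand, Dusp5 at chr19:53528895-53529144, plus, and Dusp8 at chr7:142095285-142095534, minus).
Dusp1: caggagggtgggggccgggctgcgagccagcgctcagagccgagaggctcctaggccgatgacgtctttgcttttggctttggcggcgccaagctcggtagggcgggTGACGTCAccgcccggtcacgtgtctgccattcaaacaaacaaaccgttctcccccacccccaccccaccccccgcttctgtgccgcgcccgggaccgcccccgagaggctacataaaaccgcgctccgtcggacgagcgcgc
Dusp5: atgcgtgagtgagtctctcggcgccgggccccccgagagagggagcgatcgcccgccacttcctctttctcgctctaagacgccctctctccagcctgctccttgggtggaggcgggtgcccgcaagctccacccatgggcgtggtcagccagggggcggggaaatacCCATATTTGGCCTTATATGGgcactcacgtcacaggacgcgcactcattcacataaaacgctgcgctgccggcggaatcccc
Dusp8: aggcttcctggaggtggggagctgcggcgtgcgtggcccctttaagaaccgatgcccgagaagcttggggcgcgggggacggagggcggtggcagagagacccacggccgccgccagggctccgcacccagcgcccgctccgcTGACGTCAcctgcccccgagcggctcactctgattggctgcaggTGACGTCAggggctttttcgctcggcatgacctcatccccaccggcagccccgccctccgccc
Dusp1 held 1 cAMP response element, at 143 to 136 bases before the start, and Dusp8 held 2, at 107 to 100 and at 63 to 56 bases before it. Of 32851 windows of the same length, 1.55% held this element. Dusp5 held 2 CArG boxes directly beside each other, at 82 to 73 and at 72 to 63 bases before the start, and 1.47% of all windows held such a box. AP-1 letters were present in 6.75% and the ETS core in 12.0% of all windows, and in 0 of the 8. A match is a match of letters only, and binding was not measured here.

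The windows of Dusp10 (chr1:184034131-184034380, plus strand) and Spry1 (chr3:37639697-37639946, plus strand) are shown as well, in lower case throughout, because these are the genes called in opposite directions in both TAC comparisons described further on and neither held any of the 4 motifs.
Dusp10: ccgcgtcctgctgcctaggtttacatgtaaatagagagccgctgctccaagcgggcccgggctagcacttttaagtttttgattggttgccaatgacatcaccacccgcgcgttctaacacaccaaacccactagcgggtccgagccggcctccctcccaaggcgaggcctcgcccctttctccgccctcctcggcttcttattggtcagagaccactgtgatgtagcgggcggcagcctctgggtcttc
Spry1: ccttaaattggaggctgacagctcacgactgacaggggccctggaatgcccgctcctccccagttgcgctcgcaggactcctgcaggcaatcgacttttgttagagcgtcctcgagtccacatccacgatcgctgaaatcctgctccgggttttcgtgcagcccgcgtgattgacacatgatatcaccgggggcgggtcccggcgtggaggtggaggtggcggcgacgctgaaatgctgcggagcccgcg
Dusp6, Spry2 and Spred1 also held none. The median GC content of the 8 windows was 63.2%, beside 52.4% for all windows.

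The values are normalized counts, that is, reads per gene divided by a size factor for each library, and whole reads could be recovered for 100% of them. The libraries held 21.4 to 35.8 M (mega) such reads. All 6 ventricular cardiomyocyte markers were detected in every library, with a summed level of 1.04 to 1.12 M normalized counts in Sham-Veh, 1.06 to 1.11 M in Sham-THZ1, 0.524 to 0.766 M in TAC-Veh and 0.878 to 1.12 M in TAC-THZ1. Of the 6 ventricular markers, 2 were called lower with TAC and 4 higher with THZ1 in TAC. Of 3 atrial markers, Myl7 and Sln were at 0 in some libraries. The atrial sum was low, at 82.3 in TAC-Veh replicate 1 and 42.9, 40.6 and 39.2 in TAC-Veh replicates 2 to 4. The summed level of 5 fibroblast markers was 21048 to 23263 in Sham-Veh, 20906 to 22575 in Sham-THZ1, 40791 to 59562 in TAC-Veh and 24320 to 35648 in TAC-THZ1. The summed level of 5 macrophage and leukocyte markers was 4913 to 6121 in Sham-Veh, 4862 to 5656 in Sham-THZ1, 7563 to 9216 in TAC-Veh and 5464 to 11225 in TAC-THZ1, and 3 of the 5 were called higher with TAC. The sum of 3 neutrophil markers was 6808, 854, 2820 and 136 in TAC-THZ1 replicates 1 to 4, against at most 386 in any library of the other 3 groups, and Retnlg among them was at 0 in some libraries. Erythroid markers, 3 in all, summed to 25881, 5889, 14182 and 7380 in TAC-THZ1 replicates 1 to 4. Their sum was 5281 to 5748 in Sham-Veh, 4651 to 8338 in Sham-THZ1 and 6435 to 11428 in TAC-Veh. For 5 endothelial markers the sum was 17508 to 19503 in Sham-Veh and 19405 to 20725 in Sham-THZ1. It was 15088 to 19815 in TAC-Veh and 14370 to 15543 in TAC-THZ1. For 5 smooth muscle and pericyte markers it was 19641 to 22492 in Sham-Veh and 21328 to 22394 in Sham-THZ1. In TAC-Veh this sum was 15465 to 21259, and in TAC-THZ1 15904 to 16506. Rgs5, at up to 17806, made up most of it. Markers within the endothelial and the smooth muscle and pericyte lists did not move together. With TAC, 1 endothelial marker was called higher and 2 lower, and 1 smooth muscle and pericyte marker higher and 3 lower. With THZ1 in TAC it was 1 higher and 2 lower for endothelial markers, and 1 higher and 1 lower for the other list. The shifts in these sums run along with surgery and drug and their part in the results was not tested. In bulk tissue, fewer cells of a type and less RNA per cell cannot be told apart.

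All 10 genes were expressed in ventricle and passed the filter of at least 10 normalized counts in at least 4 libraries. Per kilobase of exon, which allows levels of different genes to be compared, Dusp1 was the highest in Sham-Veh at 437 ± 107 normalized counts (SD, n = 4). Spry1 followed at 221 ± 21.8, Dusp6 at 191 ± 18, Dusp8 at 167 ± 17.3 over the 3688 exon bases it does not share, and Spry2 at 158 ± 8.80. Neighbours from Spry1 down to Spry2 overlapped in range. Spred1 followed at 127 ± 4.47, its 4 values below the 4 of Spry2. Spry4 at 67.0 ± 13.9, Dusp10 at 65.7 ± 10.1 and Dusp5 at 58.3 ± 7.83 overlapped in turn, and Dusp4 was the lowest at 14.6 ± 2.35. Dusp1 ranked first and Dusp4 last in all 4 groups, although in TAC-Veh the ranges of Dusp1 and Spry1 overlapped at the top and those of Dusp5, Dusp10 and Dusp4 overlapped at the bottom. In TAC-Veh the order changed in the middle, with Spred1 at 143 ± 21.2 above Spry2 and Dusp8, although the ranges of these 3 overlapped from one to the next.

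**Figure D1:**
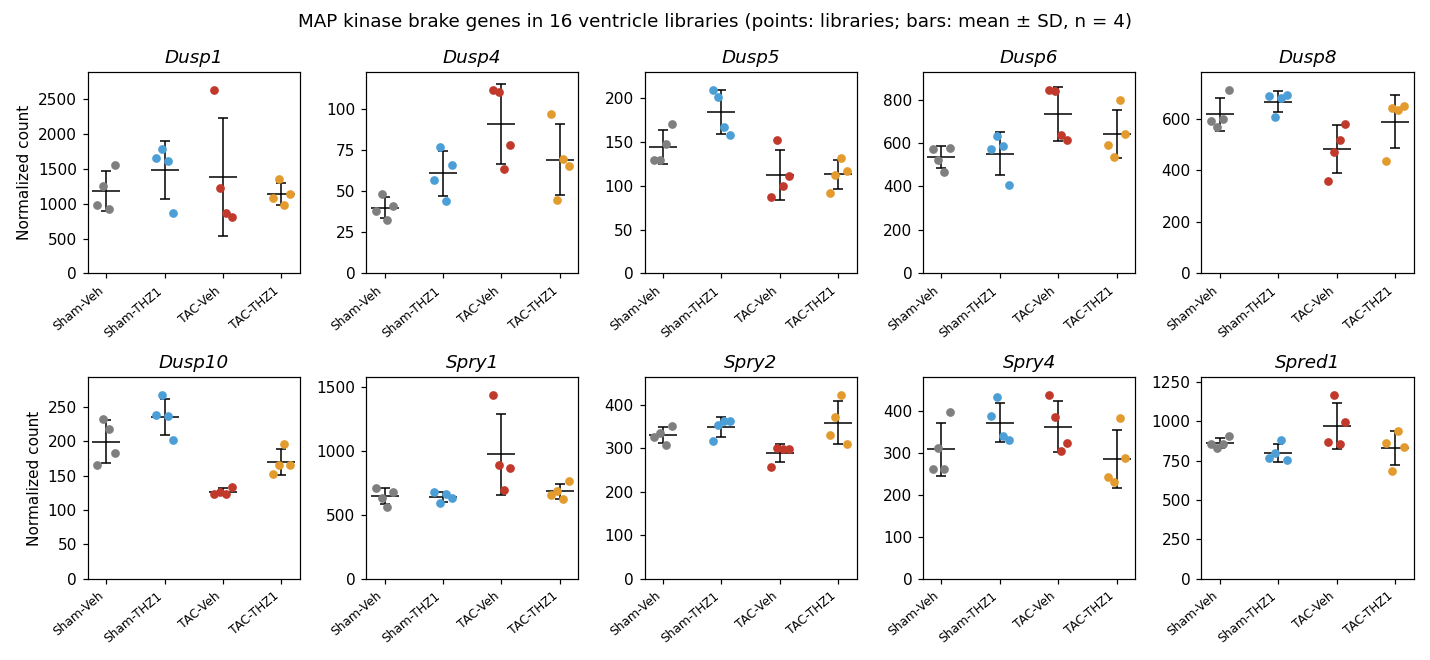
Normalized counts of the 10 brake genes (vertical axis, starting at 0, a separate scale for each gene) in the 4 groups, with 1 point per library and the mean ± SD (n = 4) in black. Dusp10 in TAC-Veh sits at 123 to 134, below every other library of the series, while the Dusp1 values of TAC-Veh spread from 814 to 2625.

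The first question was how pressure overload changed these genes, which compares TAC-Veh with Sham-Veh. Dusp4, Dusp6 and Spry1 were higher, and Dusp8 and Dusp10 were lower. That is 5 of 10 genes called by limma at an adjusted p under 0.05, beside 45.0% of all 13331 genes tested. Of the members, 3 were higher (21.4% of all genes) and 2 lower (23.6%). The median log2 fold change was 0.13 over the 10 genes and -0.003 over all genes tested. The libraries of the 2 groups did not overlap for 4 of the 10 (37.3% of all genes), which were Dusp4, Dusp6, Dusp10 and Spry2. Only Dusp4 also passed a log2 change of at least 1 in either direction, as did 8.01% of all genes. The study used this threshold for rises with TAC only, on DESeq2 values. Without Sham-Veh replicate 3 or without TAC-Veh replicate 1 the count was 3 of 10, namely Dusp4, Dusp10 and Spry1.

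Among the nuclear phosphatases, Dusp4, which acts on ERK and JNK, had the largest change of the 10 genes. It stood at 38.2, 48.1, 32.7 and 41.4 normalized counts in Sham-Veh replicates 1 to 4 and at 112, 111, 63.4 and 78.4 in TAC-Veh. All 4 TAC-Veh libraries were above all 4 Sham-Veh libraries, with replicates 1 and 2 highest. The log2 fold change was 1.14 (SE 0.24, adjusted p = 0.00104 by limma), a 2.20-fold rise, and it passed under every one of 25 alternative fits. The gene is low, with 33 to 155 reads in a library. Dusp5, a phosphatase of ERK in the nucleus, stood at 129, 129, 148 and 170.0 in Sham-Veh and at 87.0, 152, 99.1 and 111 in TAC-Veh. Replicate 2 of TAC-Veh lay within the sham range and the other 3 lay below it, and the log2 difference of -0.38 (95% confidence interval -0.72 to -0.04) had an adjusted p of 0.0658. Without TAC-Veh replicate 2 it was -0.54, with an adjusted p of 0.00916 in limma.

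Dusp1, the phosphatase of immediate early type that also responds to glucocorticoids, had the widest spread. Its values were 976, 1247, 929 and 1558 in Sham-Veh and 2625, 1231, 859 and 814 in TAC-Veh. Replicate 1 of TAC-Veh was above all other libraries of the series, while replicates 3 and 4 were below all of Sham-Veh. The log2 difference was 0.09 (95% confidence interval -0.55 to 0.73, limma adjusted p = 0.831), and it was -0.28 without TAC-Veh replicate 1. Beside Dusp1, the summed level of 12 immediate early genes ran from 4304 to 7707 in TAC-Veh and from 4452 to 4872 in Sham-Veh. Fos, which encodes a subunit of AP-1, was at 201 in TAC-Veh replicate 1, at 182 in replicate 2, and at 34.7 and 46.8 in replicates 3 and 4.

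Dusp6, the feedback phosphatase of ERK in the cytoplasm, stood at 571, 523, 468 and 576 in Sham-Veh and at 843, 839, 636 and 616 in TAC-Veh. The groups did not overlap, and replicates 1 and 2 were again the highest. The rise was 0.45 on the log2 scale (SE 0.15, limma adjusted p = 0.0218). Leaving out Sham-Veh replicate 3, TAC-Veh replicate 1 or TAC-Veh replicate 2 left 0.38, 0.37 and 0.38, with adjusted p of 0.0686, 0.0618 and 0.0700.

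Dusp8 and Dusp10, grouped above by a preference for p38 and JNK, were both lower. This does not hold for all phosphatases of these kinases, as Dusp4, which also acts on JNK, was higher. Dusp10 stood at 165, 233, 217 and 184 in Sham-Veh and at 123, 126, 123 and 134 in TAC-Veh. The TAC-Veh libraries lay close together and below every Sham-Veh library, and the gene fell by 0.64 on the log2 scale (SE 0.12, limma adjusted p = 3.05e-04), a call made under all 25 alternatives. Dusp8, known from brain, heart and skeletal muscle, stood at 592, 566, 599 and 710.0 in Sham-Veh and at 359, 470.5, 516 and 580.1 in TAC-Veh. Replicate 4 of TAC-Veh lay within the sham range. Its log2 fold change of -0.37 (SE 0.14, limma adjusted p = 0.0383) was called under 17 of 25 alternatives, and without Sham-Veh replicate 1, 3 or 4 or TAC-Veh replicate 1 or 2 it was -0.39, -0.39, -0.30, -0.24 and -0.37 with adjusted p of 0.0556 to 0.130.

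Of the membrane-proximal inhibitors, Spry1 was the only one called. It stood at 705, 628, 561 and 678 in Sham-Veh and at 1432, 887, 696 and 867 in TAC-Veh. Replicate 1 of TAC-Veh was far above the rest and replicate 3 lay within the sham range. The log2 fold change was 0.55 (SE 0.15, limma adjusted p = 0.00812). Without TAC-Veh replicate 1 it was 0.34, and it was called under all 25 alternatives. Spry2 stood at 326, 335, 308 and 352 in Sham-Veh and at 257, 302, 299 and 297 in TAC-Veh. The groups did not overlap, but the log2 difference of -0.19 (95% confidence interval -0.39 to 0.004) had an adjusted p of 0.102 in limma. Spry4 had a log2 difference of 0.24 (-0.11 to 0.60) and Spred1, which brings neurofibromin to Ras, of 0.16 (-0.05 to 0.37), with overlapping libraries in both.

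**Figure D2:**
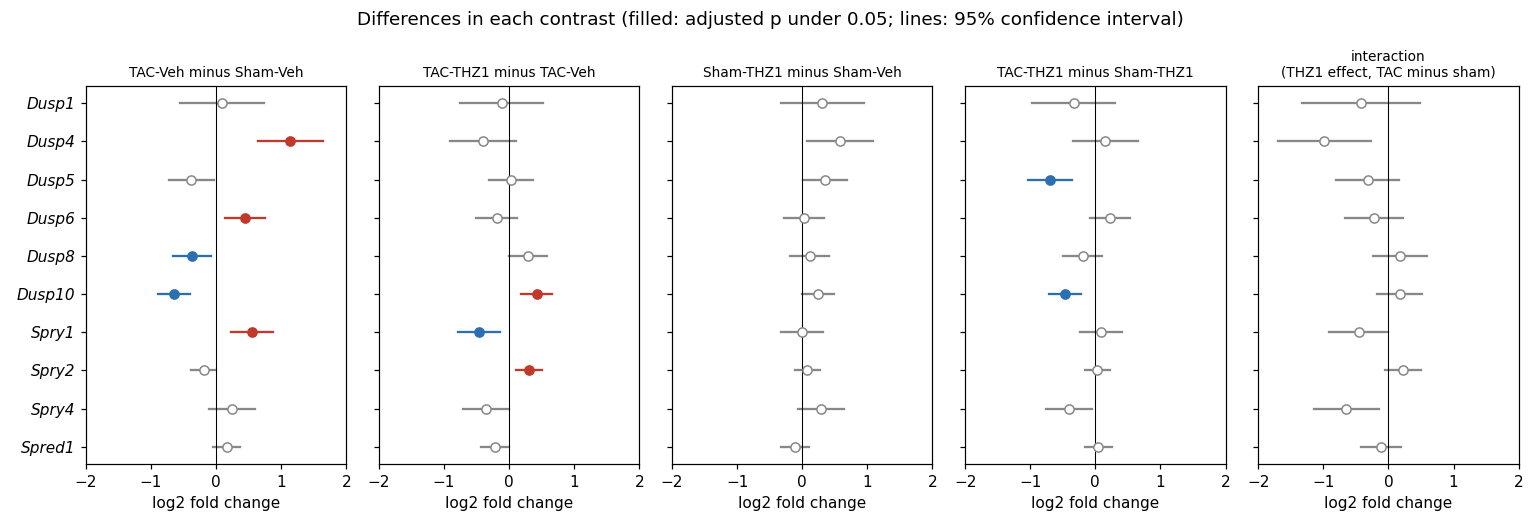
Log2 fold change (horizontal axis) of each gene in 5 contrasts fitted by limma, with its 95% confidence interval as a line. Filled points have an adjusted p under 0.05, in red where higher and in blue where lower, and open grey points do not. With TAC, 3 genes are red and 2 are blue, and with THZ1 in sham mice all 10 points are open.

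The next question was what THZ1 did in mice with TAC, which compares TAC-THZ1 with TAC-Veh. This comparison shares the TAC-Veh libraries with the first, so an extreme TAC-Veh library moves both in opposite directions. Spry1 was lower and Dusp10 and Spry2 were higher, 3 of 10 genes beside 29.4% of all genes tested (14.2% lower and 15.1% higher). The median log2 fold change was -0.15 over the 10 genes and 0.01 over all genes. The libraries did not overlap for Dusp10 and Spry2, 2 of 10 beside 20.0% of all genes. A log2 change of at least 0.89 in either direction was passed by 0 of 10, beside 5.47%. The study used that threshold for falls with THZ1 only, on DESeq2 values. Without TAC-Veh replicate 1 or without TAC-THZ1 replicate 2 the count was 1, namely Dusp10.

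Dusp10 stood at 153, 165, 197 and 166 in TAC-THZ1 replicates 1 to 4, all above the 123 to 134 of TAC-Veh. The log2 fold change was 0.42 (SE 0.12, limma adjusted p = 0.0119), called under 24 of 25 alternatives. Spry2 stood at 331, 372, 422 and 309.8 in TAC-THZ1, where the lowest was above the highest TAC-Veh value of 302. It rose by 0.30 on the log2 scale (SE 0.09, limma adjusted p = 0.0222). Without TAC-Veh replicate 1, TAC-THZ1 replicate 2 or TAC-THZ1 replicate 3 the change was 0.25, 0.28 and 0.22, with adjusted p of 0.0539, 0.0614 and 0.0714.

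Spry1 stood at 653, 686, 627 and 760.0 in TAC-THZ1, of which replicates 1 to 3 lay within its range of 561 to 705 in Sham-Veh. The TAC-Veh value of replicate 3, at 696, lay inside the TAC-THZ1 range. The log2 fold change was -0.46 (SE 0.15, limma adjusted p = 0.0315). It was called under 18 of 25 alternatives, and it was -0.26 without TAC-Veh replicate 1 (adjusted p = 0.0560). Leaving out TAC-Veh replicate 2 or TAC-THZ1 replicate 1, 2 or 3 gave -0.49, -0.44, -0.47 and -0.42, with adjusted p of 0.0521 to 0.0722. Fitting the 2 groups alone left Dusp10 as the 1 gene called, and weighting each library by its estimated precision left 0.

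The other 7 genes were not called with THZ1 in TAC. Dusp4 stood at 97.2, 44.6, 70.0 and 65.3 in TAC-THZ1, spread across the TAC-Veh range and below it, with a log2 difference of -0.40 (95% confidence interval -0.90 to 0.10, limma adjusted p = 0.213). Spry4 at 241, 229, 382 and 287 had one of -0.36 (-0.71 to -0.01, adjusted p = 0.117), which was -0.51 without TAC-THZ1 replicate 3 (adjusted p = 0.0250). Dusp8 at 436, 640.3, 631 and 647 had one of 0.29 (-0.002 to 0.59, adjusted p = 0.125). Replicate 1 of TAC-THZ1 lay well below the other 3, and without it the difference was 0.43 (adjusted p = 0.0201). Without TAC-Veh replicate 4 it was 0.39 (adjusted p = 0.0451). Spred1 was at -0.22 (-0.44 to -0.01, adjusted p = 0.106), and at -0.28 without TAC-Veh replicate 3 (adjusted p = 0.0486). Dusp6, Dusp1 and Dusp5 had log2 differences of -0.19, -0.12 and 0.03, with intervals of -0.50 to 0.12, -0.76 to 0.52 and -0.31 to 0.37.

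The drug on its own, in mice without constriction, is seen by setting Sham-THZ1 against Sham-Veh. No gene of the 10 was called by limma, beside 0.0675% of all genes tested. DESeq2 and edgeR called none of the 10 either, and their shares over all genes are not given here. At an unadjusted p under 0.05 there were 3 of 10, beside 6.88% of all genes, and these were Dusp4, Dusp5 and Dusp10 with log2 differences of 0.58, 0.35 and 0.25. Their confidence intervals were 0.08 to 1.08, 0.01 to 0.69 and 0.002 to 0.49, and every adjusted p over the alternatives was at least 0.0537. The libraries overlapped for all 10 genes (11.3% of all genes did not overlap). Dusp4 stood at 57.3, 76.9, 44.1 and 65.9 in Sham-THZ1, with replicate 3 within the Sham-Veh range. Dusp5 stood at 209, 201, 167 and 158, with replicates 1 and 2 above all of Sham-Veh. For Spry1 the 2 groups were near each other, at 643 ± 63.2 and 641 ± 38.1 (SD, n = 4), with a log2 difference of -0.003 (-0.32 to 0.32).

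Dusp1 stood at 1652, 1785, 1615 and 865 in Sham-THZ1. Replicates 1 to 3 were above all of Sham-Veh and replicate 4 was below all of it, so the log2 difference of 0.31 had an interval of -0.33 to 0.95. Replicate 4 was the lowest of its group for the summed immediate early genes too, at 4718 beside 5729, 6272 and 5859. The library with the highest Dusp1 was also the one with the highest immediate early sum in Sham-Veh and in Sham-THZ1, and not in TAC-Veh or TAC-THZ1. In Sham-THZ1 the Fos values were 95.4, 149.5, 150.9 and 30.4 in the same order.

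With THZ1 on both sides, TAC-THZ1 against Sham-THZ1 called 2 of 10 genes, both lower, beside 24.2% of all genes (12.8% lower). The libraries did not overlap for either, 2 of 10 beside 33.4%. Dusp5 stood at 91.7, 112, 131 and 117 in TAC-THZ1, all below the lowest Sham-THZ1 value of 158, and fell by 0.70 on the log2 scale (SE 0.16, limma adjusted p = 0.00666). Dusp10 had one of -0.47 (SE 0.12, limma adjusted p = 0.00937), its highest TAC-THZ1 value of 197 lying below its lowest Sham-THZ1 value of 203. Both were called under all 25 alternatives. Spry4 was at -0.40 (95% confidence interval -0.76 to -0.05, adjusted p = 0.0877), and at -0.55 without TAC-THZ1 replicate 3 (adjusted p = 0.0240) and -0.45 with libraries weighted by their estimated precision (adjusted p = 0.0209). For Dusp4, Dusp6 and Spry1, which were higher with TAC under vehicle, the log2 differences under THZ1 were 0.16 (-0.34 to 0.66), 0.23 (-0.09 to 0.54) and 0.09 (-0.23 to 0.41).

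An interaction term tested whether THZ1 acted differently after TAC than after sham surgery. It is the drug's log2 change in TAC minus its log2 change in sham. None of the 10 genes was called by limma, beside 10.0% of all genes, and 3 of 10 had an unadjusted p under 0.05 beside 27.1%. These were Dusp4 at -0.98 (95% confidence interval -1.69 to -0.27, adjusted p = 0.0705), Spry4 at -0.65 (-1.15 to -0.14, adjusted p = 0.0910) and Spry1 at -0.46 (-0.91 to -0.003, adjusted p = 0.182). DESeq2 called Dusp4 alone, at -1.01 with an adjusted p of 0.0398, and edgeR called 0 of 10. Without TAC-Veh replicate 3 limma called 3 genes, Dusp4 at -1.14, Spry1 at -0.60 and Spry4 at -0.73. Without TAC-THZ1 replicate 1 it called Dusp4 at -1.16, and without TAC-THZ1 replicate 3 it called Spry4 at -0.80.

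**Figure D3:**
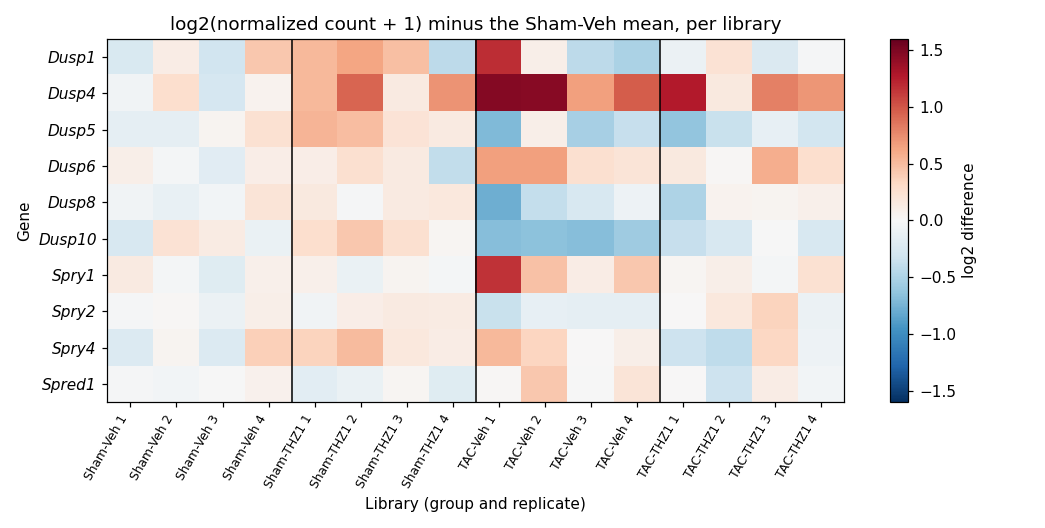
Difference of log2(normalized count + 1) from the Sham-Veh mean for each gene (rows) in each of the 16 libraries (columns, grouped by surgery and drug), from blue for lower to red for higher. TAC-Veh replicate 1 holds the highest value of the series for Dusp1, Dusp4, Dusp6, Spry1 and Spry4 and the lowest for Dusp5, Dusp8 and Spry2, and Dusp10 is blue throughout TAC-Veh.

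The median spread between mice was wider for the brake genes than for all genes in each group, but this did not hold for every member. The median SD over 4 libraries on the log2 scale was 0.17 for the 10 genes in Sham-Veh beside 0.10 for all genes, 0.17 beside 0.09 in Sham-THZ1, 0.27 beside 0.22 in TAC-Veh and 0.20 beside 0.14 in TAC-THZ1. In TAC-Veh, Dusp10 at 0.06, Spry2 at 0.11 and Spred1 at 0.21 were below the 0.22 of all genes. The widest within a group was Dusp1 in TAC-Veh at 0.78 and the narrowest was Spred1 in Sham-Veh at 0.05. TAC-Veh replicate 1 was the highest of the 16 libraries for 5 of the 10 genes and the lowest for 3. These 3 genes lowest in it were Dusp5, Dusp8 and Spry2.

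Genes with a like pattern were sought among the 10317 genes that averaged 100 normalized counts or more, as the root mean square difference of log2 values over the 16 libraries, each gene centred on its Sham-Veh mean. Nearest to Dusp6 were Ap1s1 and Ptma at 0.14 and Arf4 at 0.14, beside a median of 0.39 for all genes. Dmpk, the kinase mutated in myotonic dystrophy, and Sirt4 and Klhl31 were nearest to Dusp8 at 0.12 each (median 0.33). Zfp629 at 0.14 and Afmid and Tbc1d22b at 0.16 were nearest to Dusp10 (median 0.42). Cyth3 and Kctd10 at 0.12 and 0.13 and Cttnbp2nl at 0.14 were nearest to Spry1 (median 0.40). Dusp4 was below the level needed for this search. Within the 10 genes, the closest pairs were Dusp8 with Spry2 at 0.22, Dusp6 with Spry1 at 0.25 and Dusp5 with Dusp10 at 0.26, and the farthest was Dusp4 with Dusp10 at 1.08. These are descriptions over the same 16 libraries.

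The pathway around the brakes was described with lists of genes, each read against the 45.0% called with TAC and the 29.4% called with THZ1 in TAC. Of 6 other MAP kinase phosphatases and Spred genes tested, 3 were higher and 3 lower with TAC, and 1 was higher and 2 lower with THZ1 in TAC. Dusp3, a small phosphatase of ERK and JNK, changed by 0.35 with TAC and by -0.31 with THZ1 in TAC on the log2 scale, with limma adjusted p of 2.97e-04 and 0.00197. Dusp7, the close relative of Dusp6, changed by -0.88 and 0.57 (adjusted p of 0.00173 and 0.0376), so the 2 relatives had opposite signs with TAC. Dusp7 was called with THZ1 under 16 of 25 alternatives, and without TAC-Veh replicate 1 or 2 or TAC-THZ1 replicate 1, 2, 3 or 4 it was 0.30, 0.56, 0.60, 0.50, 0.60 and 0.59, with adjusted p of 0.0515 to 0.106. Spred2 changed by -0.44 with TAC (adjusted p = 0.00489), and with THZ1 it was at 0.04 and not called. Dusp2, Dusp9 and Dusp26 were below the filter and Spry3 was not matched.

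Upstream of the brakes, 4 of 15 growth factor ligands were higher and 5 lower with TAC. Hbegf, a ligand of the EGF receptor, changed by 2.06 with TAC and -1.45 with THZ1 in TAC, Ereg of the same family by 4.47 and -2.97, and Fgf16, a growth factor of cardiomyocytes, by -1.47 and 0.90. Ereg was near 0 in sham libraries, at 0.9 to 3.2 normalized counts in Sham-Veh and 0.9 to 4.1 in Sham-THZ1. Its fold therefore depends on the pseudocount and is no bound. Ereg was at 5.1 to 11.4 in TAC-THZ1 and 29.0 to 155 in TAC-Veh, and passed the filter only through TAC-Veh. Its place among the 4 higher ligands is therefore not independent of the filter. Of 11 receptor tyrosine kinases, 4 were higher and 3 lower with TAC, among them Fgfr1 (0.68 and then -0.67 with THZ1), Igf1r (0.99 and -0.99) and the neuregulin receptor Erbb4 (-0.95, and 0.29 with THZ1, not called). All changes given here as called had a limma adjusted p under 0.05.

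Between the receptors and the nucleus stand the kinase cascades. Of 21 ERK cascade genes, 5 were higher and 8 lower with TAC, in a range of -0.57 to 0.24, and 3 were higher and 5 lower with THZ1 in TAC. The adaptor Grb2 changed by -0.38 and then 0.32, Frs2 of the FGF receptors by -0.42 with TAC, the scaffold Ksr1 by -0.57, and Nras by 0.24 and -0.41. Frs2 and Ksr1 were not called with THZ1, at 0.03 and 0.13. Of 12 genes of the p38 and JNK cascades, 2 were higher and 8 lower with TAC, in a range of -1.12 to 0.38, and 4 were higher and 2 lower with THZ1 in TAC, in a range of -0.47 to 0.68. Mapk14, the main p38 of the heart, changed by -0.57 and 0.26, Map3k5 by -0.52 and 0.28, and Mapk9, a JNK, by -0.32 with TAC. Without TAC-THZ1 replicate 2, Mapk14 and Map3k5 lost their call with THZ1 at 0.22 and 0.23 (adjusted p of 0.0557 and 0.0547), and without TAC-Veh replicate 4, Ksr1 and Mapk9 gained one at 0.26 and 0.17 (adjusted p of 0.0272 and 0.0206). The median of the p38 and JNK list with TAC was -0.24, beside -0.003 for all genes.

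Downstream, 3 of 8 genes used as readouts of ERK-driven transcription were higher and 1 lower with TAC, and 1 was higher and 3 lower with THZ1 in TAC. Etv4 changed by 2.77 and -1.85 and Etv5 by 0.70 and -0.35, both ETS factors known as targets of FGF and ERK signals, while Epha4 changed by -1.71 and 0.93. Etv4 was low in sham libraries, at 7.4 to 13.3 normalized counts in Sham-Veh and 9.1 to 14.7 in Sham-THZ1. Its change with TAC ran from 2.42 to 2.95 over the alternatives. Of 12 immediate early genes, 5 were higher and 0 lower with TAC, with a median of 0.61, and 0 were higher and 4 lower with THZ1 in TAC, with a median of -0.62. Egr2 changed by 2.82 and -2.57, Atf3 by 2.29 and -1.47, and Myc by 1.04 and -0.74. Egr2 was low outside TAC-Veh, at 12.0 to 26.5 normalized counts in Sham-Veh and 9.8 to 38.2 in TAC-THZ1. Of 6 glucocorticoid targets, 0 were higher and 1 lower with TAC (Klf9, -0.56), and 0 were called with THZ1. Without TAC-Veh replicate 2 the change of Klf9 was -0.38 (limma adjusted p = 0.0624). In sham mice limma called 0 of the 91 listed pathway genes tested with THZ1, 11 of them having an unadjusted p under 0.05, while DESeq2 called 1 and edgeR 0. With THZ1 in TAC, Etv5 lost its call without TAC-Veh replicate 2 or 4 or TAC-THZ1 replicate 2, at -0.32, -0.27 and -0.24, and Myc without TAC-Veh replicate 1 or 2 or TAC-THZ1 replicate 2, at -0.54, -0.61 and -0.56. With the 2 groups fitted alone, Epha4 (adjusted p = 0.0662), Dusp7, Mapk14, Map3k5, Etv5 and Myc lost their call with THZ1 in TAC (limma adjusted p of 0.0662 to 0.153). With libraries weighted by their estimated precision, Dusp7, Mapk14, Map3k5, Etv5 and Myc lost it (limma adjusted p of 0.0539 to 0.147).

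**Figure D4:**
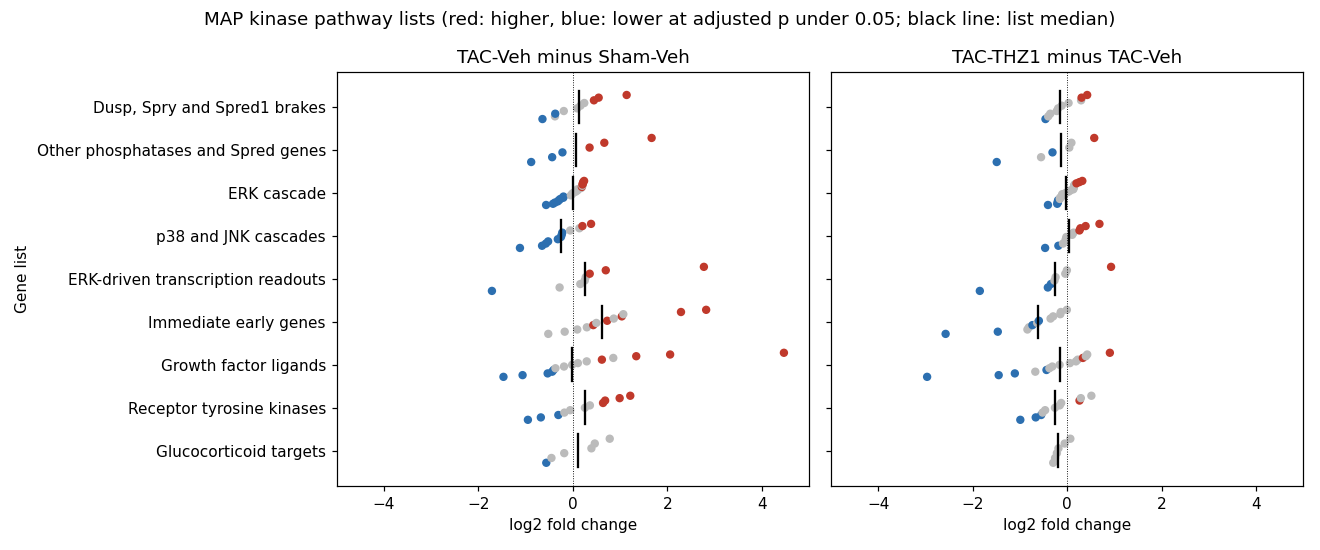
Log2 fold change (horizontal axis) of every tested gene of each list (vertical axis) with TAC (left) and with THZ1 in TAC (right), 1 point per gene, with the list's median as a black line. Red points are higher and blue points lower at a limma adjusted p under 0.05. The brake genes span -0.64 to 1.14 on the left and -0.46 to 0.42 on the right. The ligand Ereg, which passed the filter only through TAC-Veh, lies at 4.47 and -2.97.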

How the data were processed

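Ventricle RNA of 16 mice (4 in each group) was sequenced from stranded mRNA libraries. The authors aligned reads to mm9 with TopHat 2.1.1, counted them per GENCODE gene with htseq-count in reverse-stranded mode, and divided them by DESeq2 size factors over all mouse libraries, so the deposited signal is a normalized count. Whole reads were recovered at a tolerance of 0.01. In 2 libraries (TAC-Veh replicate 3 and TAC-THZ1 replicate 4) the step is near 1 and the recovery could not be checked independently.

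Log2(normalized count + 1) was fitted with limma 3.58.1 in R 4.3.3, with 1 mean per group over all 16 libraries, a variance trend and no covariates. Benjamini-Hochberg adjustment covered all 13331 genes with at least 10 normalized counts in at least 4 libraries, and genes were called at an adjusted p under 0.05. P-values set a difference of group means against the spread between mice, with 1 spread per gene shared by the 4 groups. The median SD on the log2 scale was 0.22 in TAC-Veh beside 0.09 to 0.14 in the other groups, so the shared spread is an approximation. The alternatives were count models on recovered reads (edgeR 4.0.16 and DESeq2 1.42.0), scaling, filters, pseudocount, array weights, the groups compared alone, a replicate block and leaving out each library. Scripts were tested on simulated data.

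The 10 genes and all lists were chosen with earlier results of these data known. Named pathway genes were, per list, the up to 3 called with TAC and up to 2 called with THZ1 in TAC with the smallest adjusted p. Likeness used the 3 nearest genes of each member called with TAC. No batch was given in the sources used here. The study names TruSeq Stranded mRNA or KAPA mRNA HyperPrep as the library kit, without saying which samples had which. Data on cultured cells and chromatin were not analysed here.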

Additional observations from a re-analysis of the deposited data

Results flagged for a closer look

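In 3 of 40 sets of 4 libraries (10 genes in 4 groups), 1 library stood apart by Dixon's 95% limit for its gap to the nearest value, and chance alone gives about 1 in 20. Dusp8 was at 606 in Sham-THZ1 replicate 2, beside 681 to 691 in the other 3. It was also at 436 in TAC-THZ1 replicate 1, beside 631 to 647. Spry2 was at 257 in TAC-Veh replicate 1, beside 297 to 302.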

How the results depend on the processing

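Of 440 values for single brake genes under fits other than leaving out a library, 422 kept direction and side of the threshold, 9 lost and 2 gained a call and 7 changed sign. Leaving out 1 library in turn gave 755 of 800 unchanged in this way, 16 lost, 11 gained and 18 with another sign. No called value changed sign. The number of genes called with TAC (5) was 3 with array weights (each library weighted by its estimated precision) and 3 to 5 without 1 library. It was 1 with the fold thresholds of the study, taken here in either direction. With THZ1 in TAC (3) it was 0 with array weights, 1 with only the 2 groups compared, 0 with the fold thresholds, and 1 to 4 without 1 library. With THZ1 in sham it was 0 under every alternative. For TAC-THZ1 against Sham-THZ1 (2) it was 3 with array weights (Spry4 added) and 2 to 3 without 1 library. It was 0 with the TAC threshold of 1, which the study did not set for this comparison. For the interaction (0) it was 1 with DESeq2 and 0 to 3 without 1 library. With array weights the log2 difference of Dusp1 was -0.10 with TAC and 0.11 with THZ1 in TAC, that of Dusp5 with THZ1 in TAC -0.019, that of Spred2 with THZ1 in TAC -0.041, that of Spry1 with THZ1 in sham 0.013 and that of Spry2 for TAC-THZ1 against Sham-THZ1 -0.015. DESeq2 and edgeR gave -0.0023 and -0.0054 for Dusp5 with THZ1 in TAC. Without 1 library, these values ranged from -0.28 to 0.29 for Dusp1 with TAC and from -0.31 to 0.25 with THZ1 in TAC, from -0.083 to 0.18 for Dusp5, -0.030 to 0.18 for Spred2, -0.0081 to 0.080 for Frs2 and -0.11 to 0.24 for Klf9 with THZ1 in TAC, from -0.049 to 0.16 for Dusp6 and -0.066 to 0.044 for Spry1 with THZ1 in sham, and from -0.023 to 0.35 for Dusp4, -0.051 to 0.097 for Spry2 and -0.013 to 0.14 for Spred1 in TAC-THZ1 against Sham-THZ1. The cause was not tested. Upper quartile scaling moved the median of all genes by at most 0.02.

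Same-numbered libraries did not deviate together (correlation of -0.43 to 0.16 over 24 pairs, 2 of them over 0.1). For differently numbered libraries of 2 groups the correlation was -0.23 to 0.31. Low correlation cannot exclude that the numbers pair the mice, and the main fit used no pairing. With the replicate block 5, 3, 0, 2 and 0 of the 10 genes were called in the 5 contrasts. Dusp4 was the least deeply read of the 10 genes, with 33 to 155 reads in a library.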
